A study of Mus musculus with 4 samples.

Results

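Proteins that read methylated lysine 36 of histone H3 were examined at the RNA level in bone marrow stromal cells with and without deletion of Setd2, the enzyme that places the third methyl group on that lysine. The set holds 10 genes, found by their symbols among the 44788 genes of the deposited count table. The rule itself uses no measured value, but the genes were listed with earlier results of these data known. They are Psip1, Hdgfrp2, Dnmt3a, Dnmt3b, Phf1, Mtf2, Phf19, Morf4l1, Brpf1 and Zmynd11. The Cre group received a lentivirus that encodes Cre recombinase, which cuts out the loxP-flanked (fl) part of Setd2. The GFP group received a lentivirus that encodes green fluorescent protein and kept the gene intact. Both groups were Setd2 fl/fl cells of strain C57BL/6J at passage 2, held in puromycin at 2 µg/ml for 4 days, with 2 libraries each. The labels give no age of the animals and name no separate cultures or animals behind the replicates, so p-values measure the spread between these libraries only, which may be technical. Each library was made from a whole culture, so any cells that kept Setd2 count into the Cre group. No Cre was given to the control cells, so the design cannot tell loss of Setd2 and exposure to Cre apart.

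In background terms, trimethylated H3K36 builds up over the bodies of transcribed genes, and reader proteins dock on it through PWWP, Tudor or chromo domains. Through these domains the mark is tied to DNA methylation, histone acetylation, Polycomb repression, elongation and splicing. Psip1 and Hdgfrp2 carry PWWP domains and help transcription through chromatin. Dnmt3a and Dnmt3b are the de novo DNA methyltransferases, Phf1, Mtf2 and Phf19 are the Polycomb-like subunits of Polycomb repressive complex 2 (PRC2), Morf4l1 and Brpf1 serve acetyltransferase complexes, and Zmynd11 restrains elongation where the mark lies on histone H3.3.

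The libraries held between 12371994 and 14315903 counts, and the replicates within each group differed beyond the noise of counting. A median chi-square per gene, as a multiple of its value under counting noise, was 1.95 between the Cre libraries and 4.45 between the GFP libraries. Between Cre replicate 1 and GFP replicate 1 it was 3.79, below the GFP pair. The other pairs across the groups ran from 5.11 to 7.12. GFP replicate 2 stood apart, with 7.45% of its counts on the 18S ribosomal RNA gene, against 1.21% to 2.07% in the others. Setd2 had 38.1 and 32.3 CPM in Cre cells, against 107 and 106 CPM in GFP cells, where CPM is the count scaled to a library of 1000000. Its log2 fold change (Cre over GFP throughout) was -1.60 (95% interval from -1.76 to -1.44, adjusted p = 3.65e-15). Without GFP replicate 2 its log2 fold change was -1.59, in a fit with a lone GFP library. The labels do not name the deleted exons, and the gene count covers all of them. Of 8 stromal markers and 8 macrophage markers all were detected in every library. The stromal markers summed to 12462 and 13045 CPM in Cre cells, against 9570 and 9469 CPM in GFP cells. Most of each sum was Col1a1, at 9641 and 10160 CPM in Cre cells, against 6881 and 6910 CPM in GFP cells. Of the 8 stromal markers 3 rose and 1 fell, and the log2 fold change was below 0 for 5 and above 0 for 3. Macrophage markers summed to 2231 and 2222 CPM in Cre cells, against 1897 and 1951 CPM in GFP cells. Most of each sum was Lyz2, at 1685 and 1697 CPM in Cre cells, against 1388 and 1409 CPM in GFP cells. Of the 8 macrophage markers 2 rose and 1 fell. Over all tested genes 3.74% rose and 3.22% fell. In such bulk samples a change in the share of a cell type and a change in RNA per cell cannot be told apart, and the part of the marker levels in the results below was not tested. The 5 endothelial markers summed to under 10 CPM in each library.

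No reader's RNA differed between Cre and GFP cells beyond the threshold, and the fitted changes lay between -0.22 and 0.16 on the log2 scale. None of the 10 passed the test at an adjusted p of 0.05, while 1009 of 14483 genes tested did (6.97%). At that share 10 genes would hold 0.697 called genes, so a count of 0 is near the background. DESeq2 also called none of the 8 to which it gave an adjusted p (not Dnmt3b and Phf19), beside 3.87% of the genes it tested. At an unadjusted p under 0.05 stood 1 reader with either tool, Zmynd11, against 20.9% of all genes with edgeR. Robust dispersion estimates called 1 reader, Zmynd11, beside 9.21% of all genes. The count was 0 at an adjusted p of 0.01 (3.29% of all genes called) and with median-of-ratios scaling (6.99%). It stayed at 0 with library size alone (3.66%), limma-voom (7.19%), the replicate block (5.72%) and at least 1 CPM in 2 libraries (8.34%). It was 0 with no filter (0.118%) and with ribosomal and abundant noncoding RNA genes removed (6.79%). It also stayed at 0 without Cre replicate 1 (3.51%), Cre replicate 2 (2.53%), GFP replicate 1 (0.0803%) or GFP replicate 2 (0%), where few genes or none passed without a GFP library. All 10 passed the filter on low counts. Reader log2 fold changes were below 0 for 6 genes and above 0 for 4. Their median was -0.006, against -0.004 over all tested genes. The median absolute log2 fold change was 0.11 for the readers and 0.12 for all tested genes. The libraries of the 2 groups did not overlap for 5 of the 10, which is the share over all tested genes (50.0%).

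The intervals show how closely each change was measured between these libraries, 2 per group, whose spread may be technical. For 8 of the 10 readers the 95% interval of the fold change lay wholly within 1.5-fold in either direction. The exceptions were Phf19 and Dnmt3b, which had fewer than 100 counts in each library. The lowest bound of any reader's interval was -0.603 on the log2 scale (Phf19), while the interval of Setd2 ended at -1.44. These intervals are not adjusted for the number of genes tested.

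**Figure D1:**
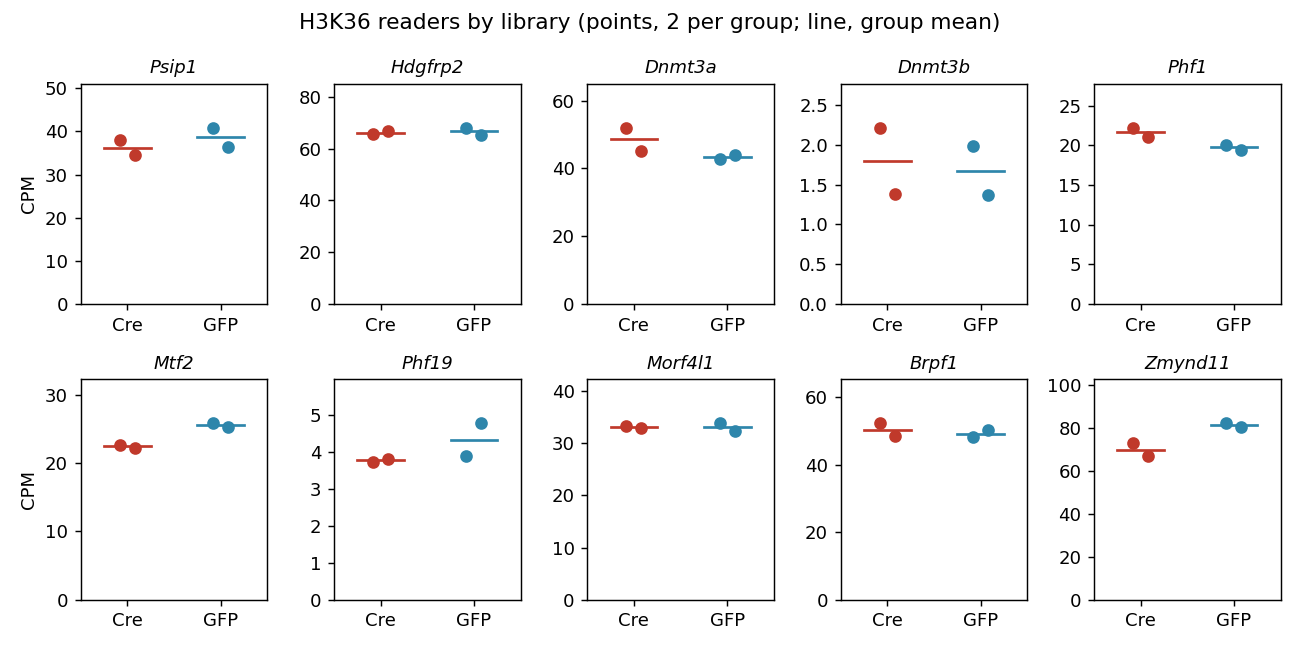
CPM of each H3K36 reader in the 2 Cre and the 2 GFP libraries (points), with the group mean as a line and each axis starting at 0. Zmynd11, Mtf2 and Phf19 lay lower in both Cre libraries than in both GFP libraries, Dnmt3a and Phf1 lay higher, and none of the 10 passed the test.

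**Figure D2:**
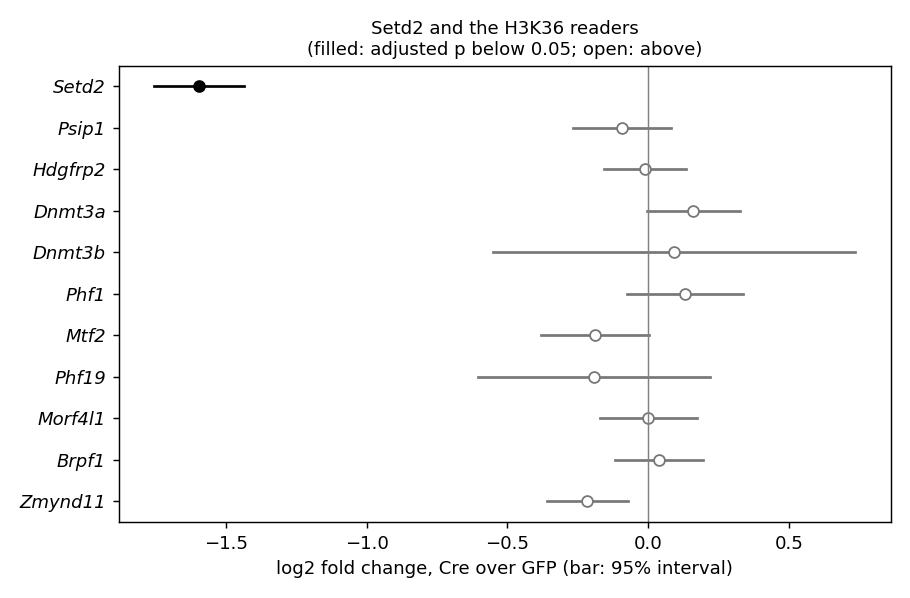
Log2 fold change of Setd2 and the 10 readers, Cre over GFP, with 95% intervals as bars. Setd2 stood at -1.60, and the readers lay between -0.22 and 0.16 with intervals widest for Dnmt3b and Phf19.

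Psip1 and Hdgfrp2 belong to the family of hepatoma-derived growth factor (HDGF). Both pair an N-terminal PWWP domain with an integrase-binding domain through which they hold partners on chromatin, and Psip1 is known as LEDGF, the tether of HIV integrase. Psip1 lies on chromosome 4 from 83455680 to 83486463 (RefSeq, GRCm38). It had 38.0 and 34.6 CPM in Cre cells, against 40.9 and 36.4 CPM in GFP cells. The groups overlapped, since GFP replicate 2 lay below Cre replicate 1. Psip1 had a log2 fold change of -0.09 ± 0.09 (SE; 95% interval from -0.27 to 0.08, adjusted p = 0.587). GENCODE M21 lists 5 coding transcripts of Psip1, and a gene count does not separate its long form, which carries the integrase-binding domain, from the short form that lacks it. Exons of Snapc3 on the opposite strand cover 9.5% of its exon bases, and the table does not say whether strand was used in counting.

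Hdgfrp2, now named Hdgfl2, lies on chromosome 17 from 56079599 to 56100605. It had 65.5 and 66.7 CPM in Cre cells, against 68.0 and 65.1 CPM in GFP cells. Both Cre values fell between the GFP values. The log2 fold change of -0.01 had a 95% interval from -0.16 to 0.13 (adjusted p = 0.955), so a fold above 1.10 or below 0.898 lay outside it. With scaling by library size alone the sign turned, to 0.02. Hdgfrp2 supplied 71.2% and 73.4% of the length-scaled counts of the pair in Cre cells, against 70.5% and 72.0% in GFP cells (mean difference 1.11 points, exact permutation test, two-sided p = 0.667, where 2 libraries against 2 allow no p below 0.333).

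Dnmt3a and Dnmt3b set new DNA methylation, and the PWWP domain of each binds methylated H3K36. Dnmt3b is the member known to follow the trimethyl mark into gene bodies. Dnmt3a, on chromosome 12 from 3801559 to 3914443, had 752 and 653 counts in Cre cells, against 564 and 517 counts in GFP cells. Scaled to library size, these were 52.0 and 45.1 CPM with Cre, against 42.9 and 44.0 CPM with GFP. Both Cre libraries lay above both GFP libraries, but the Cre libraries lay farther from each other than the group means did. Dnmt3a had a log2 fold change of 0.16 ± 0.08 (SE), a 95% interval from -0.01 to 0.33 and an adjusted p of 0.259, and without Cre replicate 1 it was 0.06. The antisense gene Dnmt3aos had 6 and 3 counts in Cre cells, against 0 and 1 in GFP cells.

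Dnmt3b, on chromosome 2 from 153649411 to 153687730, was the lowest reader. It had 32 and 20 counts in Cre cells, against 26 and 16 counts in GFP cells, or 2.21 and 1.38 CPM against 1.98 and 1.36 CPM. Replicate 1 was the higher one in both groups, and the groups overlapped. The log2 fold change of 0.09 had a 95% interval from -0.55 to 0.74 (adjusted p = 0.911), or from 0.682-fold to 1.67-fold. It turned to -0.28 without Cre replicate 1 and to -0.14 without GFP replicate 2. Per length of transcript, Dnmt3a exceeded Dnmt3b between 9.68-fold and 14.6-fold in the 4 libraries. Dnmt3b made up 8.71% and 6.43% of the length-scaled pair in Cre cells, against 9.37% and 6.49% in GFP cells, and the groups overlapped (exact permutation test, two-sided p = 0.667).

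The 3 Polycomb-like proteins bind methylated H3K36 through a Tudor domain and bring PRC2, which methylates lysine 27 of the same histone, to its sites. Mtf2, on chromosome 5 from 108065660 to 108109219, had 22.7 and 22.2 CPM in Cre cells, against 25.8 and 25.3 CPM in GFP cells. The Cre libraries lay below both GFP libraries, with close replicates in each group. For Mtf2 the log2 fold change was -0.19 ± 0.09 (SE; 95% interval from -0.38 to 0.00, adjusted p = 0.254). Exons of Tmed5 on the opposite strand cover 6.93% of the exon bases of Mtf2. Tmed5 had 79.2 and 81.5 CPM in Cre cells, against 87.4 and 85.4 CPM in GFP cells, and its part in the Mtf2 values was not tested. Phf1, on chromosome 17 from 26933127 to 26937908, had 22.2 and 21.1 CPM in Cre cells, against 20.1 and 19.4 CPM in GFP cells. Both Cre values lay above both GFP values, with a log2 fold change of 0.13 (95% interval from -0.07 to 0.34, adjusted p = 0.50). Opposite-strand genes, chiefly Cuta, share 39.3% of the exon bases of Phf1, which makes its count uncertain. Cuta had 45.1 and 43.4 CPM in Cre cells, against 40.3 and 43.2 CPM in GFP cells, and its part in the Phf1 values was not tested.

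Phf19, on chromosome 2 from 34893752 to 34914353, had 54 and 55 counts in Cre cells, against 51 and 56 counts in GFP cells. In CPM the Cre libraries, at 3.74 and 3.80, lay just below the GFP libraries, at 3.88 and 4.77. Phf19 had a log2 fold change of -0.19 with a 95% interval from -0.60 to 0.22 (adjusted p = 0.647), and it shrank to -0.04 without GFP replicate 2.

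Within the Polycomb-like family Phf1 took a higher and Mtf2 a lower share in both Cre libraries than in both GFP libraries. Phf1 held 57.2% and 56.3% of the family's length-scaled counts in Cre cells, against 51.8% and 50.6% in GFP cells, a difference of 5.51 points. Mtf2 held 36.3% and 36.9% in Cre cells, against 41.4% and 41.0% in GFP cells, a difference of -4.61 points. For both genes the difference was larger than the spread between replicates, but the exact permutation test gave the smallest p that 2 against 2 allow (two-sided p = 0.333). The uncertainty that overlapping genes bring to the Phf1 and Mtf2 counts applies to every share. Phf19 held 6.49% and 6.85% in Cre cells, against 6.76% and 8.39% in GFP cells, with overlapping groups.

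**Figure D3:**
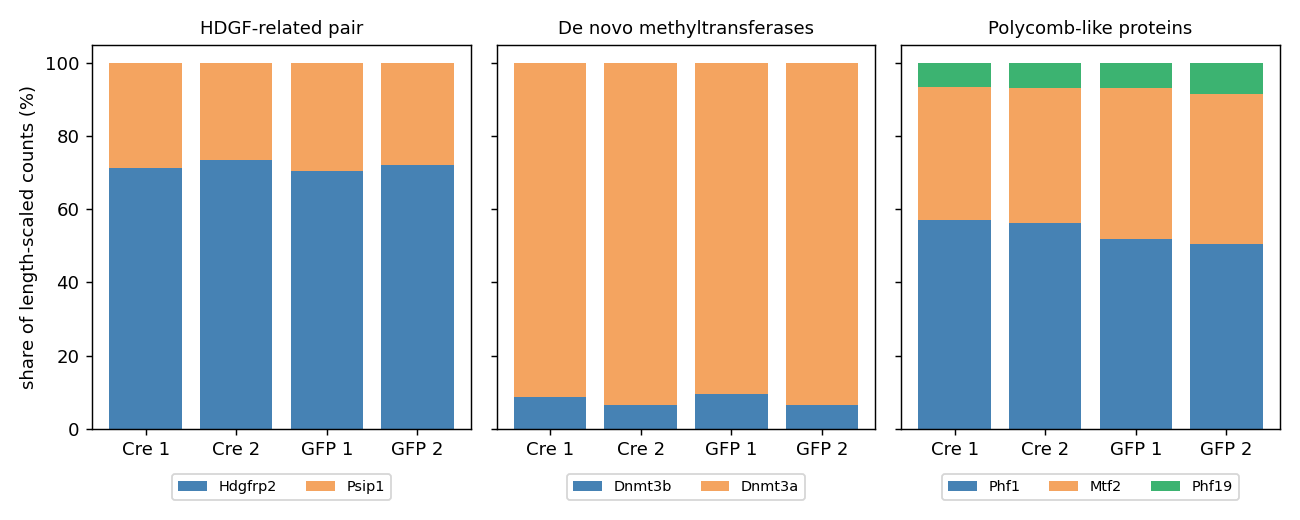
Share of length-scaled counts (%) taken by each gene within 3 families of readers, per library, with the 2 Cre libraries left of the 2 GFP libraries. Phf1 took 56.3% to 57.2% of the Polycomb-like family in Cre cells and 50.6% to 51.8% in GFP cells, while the other 2 families overlapped between the groups.

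Morf4l1 and Brpf1 connect the mark to histone acetylation. Morf4l1, also called MRG15, reads methylated H3K36 with a chromodomain and sits in both the TIP60 acetyltransferase and the SIN3 deacetylase complexes. It lies on chromosome 9 from 90091669 to 90114820 and had 33.2 and 32.9 CPM in Cre cells, against 33.8 and 32.3 CPM in GFP cells. Both Cre values fell between the GFP values. Morf4l1 had a log2 fold change of 0.00 (95% interval from -0.17 to 0.17, unadjusted p = 0.999), and its sign depended on the scaling. Exons of Gm26882 on the opposite strand cover 15.4% of the exon bases of Morf4l1, and whether strand was used in counting is not given. The level of Morf4l1 is also uncertain since the table describes 9 other rows as its pseudogenes or as like it. They summed to 45 and 58 counts in Cre cells, against 34 and 42 counts in GFP cells, which is 9.38% and 12.2% of the Morf4l1 count with Cre and 7.66% and 11.1% with GFP. Reads that fit several copies could have been split or dropped.

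Brpf1 scaffolds the MOZ and MORF acetyltransferases and reads the mark with a PWWP domain. It lies on chromosome 6 from 113306863 to 113324862 and had 52.3 and 48.6 CPM in Cre cells, against 48.2 and 50.2 CPM in GFP cells. The groups overlapped, with Cre replicate 1 highest and GFP replicate 1 lowest. Brpf1 had a log2 fold change of 0.04 (95% interval from -0.12 to 0.19, adjusted p = 0.837).

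Zmynd11, also called BS69, reads the trimethyl mark on histone H3.3 with a joined bromodomain and PWWP domain and holds back elongation by RNA polymerase II. It came nearest to the threshold of all readers. It lies on chromosome 13 from 9684836 to 9766014 and had 1058 and 969 counts in Cre cells, against 1081 and 945 counts in GFP cells. Scaled, these were 73.2 and 67.0 CPM with Cre, against 82.3 and 80.5 CPM with GFP. Both Cre libraries lay below both GFP libraries. The mean was 70.1 ± 4.42 CPM in Cre cells and 81.4 ± 1.27 CPM in GFP cells (SD, n = 2 each). For Zmynd11 the log2 fold change was -0.22 ± 0.07 (SE; 95% interval from -0.36 to -0.07), and the adjusted p was 0.0593 with edgeR and 0.299 with DESeq2. With robust dispersion estimates it passed (adjusted p = 0.0349), beside 9.21% of all genes. Without Cre replicate 2 the log2 fold change was -0.15 and without Cre replicate 1 it was -0.27, with an adjusted p of 0.580 and 0.115.

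Levels can be compared between readers only per length, here as CPM per kb of the longest coding transcript in GENCODE M21. Hdgfrp2 was highest, at 29.1 ± 0.360 in Cre cells and 29.3 ± 0.902 in GFP cells (SD, n = 2 each), and Dnmt3b lowest, at 0.416 ± 0.136 in Cre cells and 0.387 ± 0.101 in GFP cells. Over the 4 libraries the means of the others, on the same scale, were 18.4 for Zmynd11, 17.6 for Morf4l1, 11.5 for Psip1, 10.3 for Brpf1, 8.19 for Phf1, 5.91 for Mtf2, 4.75 for Dnmt3a and 1.08 for Phf19. Of the 9 neighbouring pairs in this order, 2 overlapped between libraries, Zmynd11 with Morf4l1 and Psip1 with Brpf1. The middle of the order depends on the length used. Per kb of all annotated exons, a scale chosen after the data were seen, Morf4l1 stood at 3.39 and dropped to rank 7, while Hdgfrp2 kept rank 1 and Dnmt3a, Phf19 and Dnmt3b kept ranks 8 to 10.

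**Figure D4:**
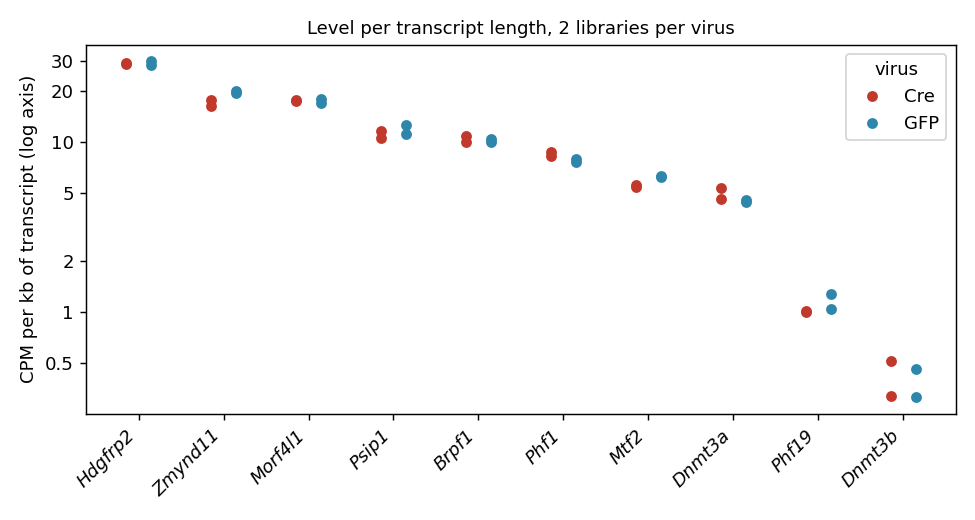
CPM per kb of the longest coding transcript (log axis) for the 10 readers, ordered by mean, with Cre libraries left of GFP libraries. Levels ran from 29.2 for Hdgfrp2 to 0.402 for Dnmt3b as means of the 4 libraries, a 72.8-fold range, and no gene's groups lay far apart on this scale.

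Partners of the readers were described from 7 lists that hold 88 genes, of which 87 were tested. Of these, 9 fell (10.3%, against 3.22% of all tested genes that fell) and 0 rose (against 3.74%). The alternatives moved these counts both ways: robust dispersion estimates called 11 lower and 1 higher, and a filter of at least 1 CPM in 2 libraries 9 lower and 1 higher. The lists were written with results of these data known, so the counts are descriptive. None of the 9 passed in the edgeR test without GFP replicate 2, GFP replicate 1 or Cre replicate 2, and without GFP replicate 2 no gene of the table did, with 2197 at an unadjusted p under 0.05. DESeq2, which gave Tet1 no adjusted p, called 2, Kmt2a and Ncor1, and scaling by library size alone 1, Kmt2a. Of the 9 genes 6 had a longest coding transcript of at least 8 kb. So did 15 of the 87 tested partner genes, and 5.32% of all tested genes with a known length. The median log2 fold change of the 744 such long genes was -0.11, against 0.00 for the 13243 shorter ones, and the part of transcript length in these falls was not tested. Among the readers only Dnmt3a, which lay higher with Cre, is that long.

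Among 16 other proteins with a PWWP domain, 15 were tested, 3 fell and none rose, against 3.22% and 3.74% of all tested genes. The median log2 fold change of the list was -0.11. Nsd1, a dimethyltransferase of H3K36, had 104 and 99.5 CPM in Cre cells, against 114 and 131 CPM in GFP cells (log2 fold change -0.27 ± 0.07, SE, and adjusted p = 0.0142). Whsc1, now named Nsd2 and also a dimethyltransferase of H3K36, had 64.0 and 57.1 CPM in Cre cells, against 70.3 and 78.0 CPM in GFP cells (-0.29, adjusted p = 0.0149). Msh6, the mismatch repair subunit whose PWWP domain binds the trimethyl mark, had 27.8 and 24.7 CPM in Cre cells, against 33.0 and 34.6 CPM in GFP cells (-0.37, adjusted p = 0.00986). In all 3 genes both Cre libraries lay below both GFP libraries, which their choice by the test on the same libraries made likely. Without GFP replicate 2 the log2 fold changes were -0.16 for Nsd1, -0.21 for Whsc1 and -0.33 for Msh6. The groups did not overlap, in either direction, for 11 of the 15 tested genes of this list, against 50.0% of all tested genes. Hdgf, the most abundant gene of the list, stood at 0.02 (adjusted p = 0.924) and, per length, 4.52-fold above its relative Hdgfrp2.

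Of 15 genes of DNA methylation other than the de novo enzymes, 2 fell and none rose, against 3.22% and 3.74% of all tested genes. The median was -0.06, and the groups did not overlap for 6 of the 15, against 50.0% of all tested genes. Tet1, which oxidizes methylcytosine, had 31 and 23 counts in Cre cells, against 47 and 40 counts in GFP cells, which is -0.90 ± 0.25 (SE) as log2 fold change (95% interval from -1.42 to -0.39, adjusted p = 0.0222). Hells, a remodeller needed for DNA methylation, had 16.3 and 14.5 CPM in Cre cells, against 19.2 and 20.8 CPM in GFP cells (-0.37, adjusted p = 0.0345). Mbd3, a subunit of the NuRD corepressor complex named here after its values were seen, had 97.0 and 102 CPM in Cre cells, against 84.0 and 88.6 CPM in GFP cells (0.20, adjusted p = 0.0640). It passed as higher in Cre cells with robust dispersion estimates (adjusted p = 0.0401) and with at least 1 CPM in 2 libraries (adjusted p = 0.0499). The maintenance enzyme Dnmt1, the most abundant of the list, had 89.8 and 88.0 CPM in Cre cells, against 102 and 102 CPM in GFP cells (-0.20, adjusted p = 0.0601, and 0.0409 with robust dispersion estimates). Per length it was 3.45-fold above Dnmt3a. Of 14 genes of proliferating cells 8 fell and none rose, against 3.22% and 3.74% of all tested genes. Their summed level was 784 and 750 CPM in Cre cells, against 877 and 911 CPM in GFP cells. Those that did not pass were Mcm2, Mcm3, Mcm5, Mcm6, Pcna and Rrm2, with log2 fold changes from -0.21 (Mcm3) to 0.07 (Pcna). The part of proliferation in the falls of Hells and Msh6 was not tested.

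Of 9 further subunits of PRC2 none passed, against 6.97% of all tested genes, and the median was 0.00. The groups did not overlap for 4 of the 9, against 50.0% of all tested genes. Ezh2, the methyltransferase subunit, had 35.1 and 34.3 CPM in Cre cells, against 39.4 and 38.1 CPM in GFP cells (-0.16, adjusted p = 0.260). Suz12, its core partner, had 54.3 and 52.0 CPM in Cre cells, against 63.7 and 60.8 CPM in GFP cells (-0.23, adjusted p = 0.0549). With robust dispersion estimates Suz12 was the 1 subunit of the list that passed (adjusted p = 0.0350). Rbbp4, the most abundant subunit, stood at 0.00 (adjusted p = 0.988).

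Of 28 genes of the Morf4l1 complexes, 1 fell and none rose, against 3.22% and 3.74% of all tested genes. The median was 0.04, and the groups did not overlap for 17 of the 28, against 50.0% of all tested genes. The gene that fell was Ep400, the remodelling ATPase of the TIP60 complex. It had 116 and 112 CPM in Cre cells, against 127 and 141 CPM in GFP cells (-0.23, adjusted p = 0.0326). Morf4l2, the paralog of Morf4l1 that lacks the chromodomain, was the most abundant, with 265 and 262 CPM in Cre cells, against 255 and 239 CPM in GFP cells (0.09, adjusted p = 0.433). Of 11 genes of the MOZ, MORF and HBO1 complexes, 1 fell and none rose, against 3.22% and 3.74% of all tested genes. Their median was -0.11, and the groups did not overlap for 7 of the 11, against 50.0% of all tested genes. The gene that fell, Kat6a, encodes MOZ itself. It had 66.7 and 56.9 CPM in Cre cells, against 69.8 and 77.9 CPM in GFP cells (-0.26, adjusted p = 0.0440). With the replicate number as a block neither Ep400 (adjusted p = 0.0583) nor Kat6a (adjusted p = 0.0703) passed. Without each library in turn, the log2 fold change ran from -0.30 to -0.15 for Ep400 and from -0.37 to -0.14 for Kat6a. Kat7, the most abundant of that list, stood at -0.10 (adjusted p = 0.456).

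Of 7 partners of the Psip1 integrase-binding domain, 1 fell and none rose, against 3.22% and 3.74% of all tested genes. Their median log2 fold change was -0.14, with 6 below 0 and 1 above. The groups did not overlap for any of the 7, in either direction, against 50.0% of all tested genes. Kmt2a, the H3K4 methyltransferase MLL1 that Psip1 helps to bind chromatin, had 109 and 89.0 CPM in Cre cells, against 120 and 134 CPM in GFP cells (log2 fold change -0.35 ± 0.08, SE, and adjusted p = 0.00361). Its log2 fold change ran from -0.50 to -0.21 without each library in turn. Of 6 genes of the splicing and corepressor partners of Zmynd11 and of histone H3.3, 1 fell and none rose. The median of these 6 was 0.00, and the groups did not overlap for 1 of them. Ncor1, a nuclear receptor corepressor, had 173 and 157 CPM in Cre cells, against 197 and 199 CPM in GFP cells (-0.26, adjusted p = 0.0101). The splicing factor gene Prpf8, the most abundant of that list, stood at -0.04 (adjusted p = 0.769), and at 0.06 without GFP replicate 2.

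Germline genes that somatic cells keep silent with promoter DNA methylation were read as a further list. Of 14 such genes 13 were below the count filter, with at most 8 counts in any library. The list summed to 37 and 39 counts in Cre cells, against 41 and 47 counts in GFP cells. Brdt, the testis bromodomain gene and the only one tested, had 20 and 21 counts in Cre cells, against 20 and 26 counts in GFP cells (log2 fold change -0.38, 95% interval from -1.02 to 0.25, adjusted p = 0.528). A count of 0 allows up to 3 counts, or 0.207 to 0.255 CPM depending on the library, for counting error only.

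**Figure D5:**
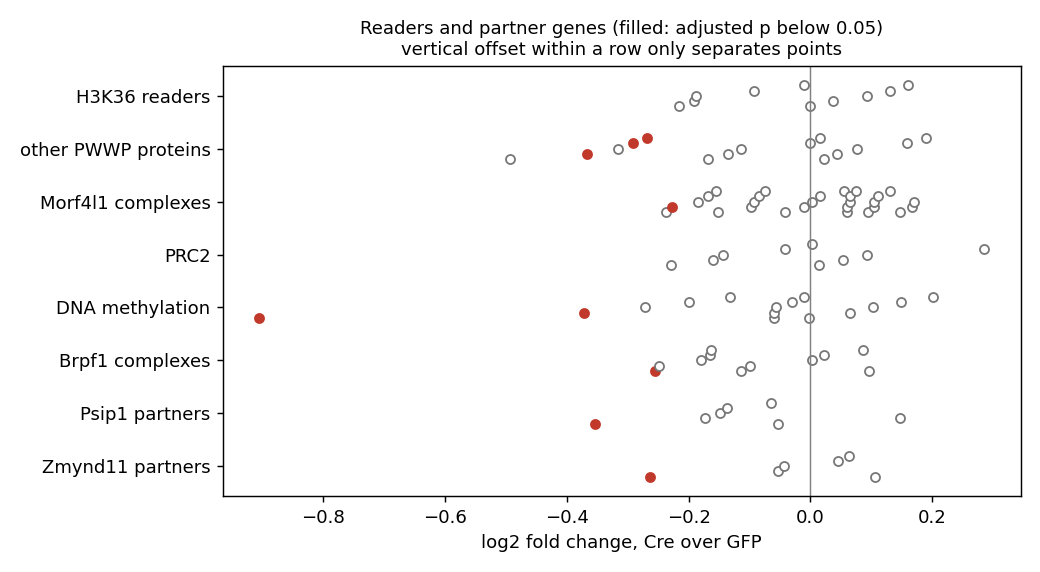
Log2 fold change, Cre over GFP, of every tested gene among the 10 readers and 7 lists of their partners, 1 point per gene, filled where the adjusted p was below 0.05. No reader is filled, and all 9 filled partner genes lie below 0, with Tet1 at -0.90.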

How the data were processed

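RNA sequencing libraries (Illumina TruSeq RNA kit, 1 µg of total RNA, per the labels' protocols) were deposited by the authors as raw whole-number counts per gene. The submitters' processing notes name HISAT2 and the genome build GRCm38. No source used here gives the counting program, annotation or strand setting, so overlapping genes and near copies are uncertain.

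Counts were tested with edgeR 4.0.16 (R 4.3.3): filterByExpr (minimum count 10, minimum total 15), TMM scaling, and its quasi-likelihood test of Cre against GFP without covariates. The threshold was a Benjamini-Hochberg adjusted p of 0.05, computed over 14483 genes. Standard errors and 95% intervals came from the fitted weights and moderated dispersion of the same fit. CPM use TMM-scaled library sizes. All 10 members matched RefSeq (positions) and GENCODE M21 (lengths, overlaps).

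The members and lists were chosen with earlier results of these data known. Named genes are the members, Setd2, and, per partner list, the most abundant tested gene and up to 4 called genes (mean of 1 CPM or more). Ezh2, Suz12 and Mbd3 were named after their values were seen. With 4 libraries, likeness between genes was not computed. The alternatives were other scalings and filters, DESeq2 1.42.0, limma-voom (limma 3.58.1), robust dispersion, a replicate block, a stricter threshold, removal of 9 ribosomal and abundant noncoding RNA genes, and leaving out each library, in which a lone library is assumed to vary like the other group.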

Additional observations from a re-analysis of the deposited data

How the results depend on the processing

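The number of readers called was 0 in every alternative run but robust dispersion estimates, which called 1 (Zmynd11). The total of 1009 called genes became 530 with scaling by library size alone, 380 with DESeq2, 30 without a low-count filter, 477 at an adjusted p of 0.01, and 0 to 516 without each library in turn. The 9 called partner genes became 1 with scaling by library size alone, 2 with DESeq2, 0 without a low-count filter, 2 at an adjusted p of 0.01, 10 with at least 1 CPM in 2 libraries, 12 with robust dispersion estimates, and 0 to 6 without each library. The causes were not tested. Among genes that passed in no case, signs turned for Morf4l1 (0.002 with median-of-ratios scaling, 0.0318 with library size alone, 0.0052 with DESeq2, 0.0089 without a filter, 0.0051 with at least 1 CPM in 2 libraries, 0.0007 with the replicate block, -0.03 to 0.035 without each library), Hdgfrp2 (0.0206 with library size alone, -0.0397 to 0.0217 without each library), Dnmt3b (-0.28 to 0.40), Brpf1 (-0.01 to 0.0887), Hdgf (-0.0175 to 0.056), Rbbp4 (-0.0159 to 0.0248) and Prpf8 (-0.14 to 0.0589), the last 5 when a library was left out. Replicate numbers are shared between the groups, but deviations of same-numbered libraries did not go together (r = -0.01 across 14483 genes, which are not independent replicates). With a single replicate difference per group, this value cannot show whether same-numbered libraries share a culture or an animal. With the replicate number as a block 829 genes were called, 0 readers and 7 partner genes. Scaling by library size alone moved the median of all genes by 0.03 on the log2 scale. Without each library in turn, the Cre minus GFP difference in share ran from -1.80 to 1.08 points for Dnmt3b and from -0.02 to 2.23 for Hdgfrp2, so their signs turned, from 4.90 to 6.13 for Phf1, from -4.87 to -4.35 for Mtf2 and from -1.72 to -0.09 for Phf19. Depth limits Dnmt3b, Phf19, Tet1 and Brdt most, each with under 60 counts in a library.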
